A study of Mus musculus with 2 samples.

Results

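Mir532, Mir188, Mir362, Mir501 and Mir500 are 5 miRNA genes that lie side by side within Clcn5 on the mouse X chromosome. They were taken as the rows whose identifiers map in mouse GENCODE to these 5 symbols, 5 of the 1973 miRNA genes that were counted. The data are microRNA sequencing of whole intestine, with no segment given, from 2 pups of strain B6NCrl at postnatal day 0, called pup 1 and pup 2. The labels name pup 1 and pup 2 of the same pregnant female and give both the same donor identifier, the sex was not collected, no treatment or allele is named, and each pup gave 1 library. Pup 1 gave 6375694 reads and pup 2 gave 8373497. MiRNA genes took 3567658 and 4683939 of them on their own strand, and levels are counts per 1000000 of those (CPM). All 5 genes had at least 10 counts in each library, the minimum for a gene to be called detected here, as did 314 genes in all. The rule itself names genes by position, but the cluster was chosen by its counts and its ratios between these pups, which were known when it was proposed, so both are described without a test. Every ± is the SD over the 2 pups (n = 2), and intervals are exact 95% binomial intervals, which cover counting error only.

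Clcn5 encodes an endosomal chloride-proton exchanger best known from the kidney, where its loss impairs protein uptake by the proximal tubule. A miRNA within an intron is cut by Drosha from the primary transcript as a hairpin, and Dicer then frees the mature strands, called 5p and 3p after the arm of the hairpin they come from. A mature strand finds its targets mainly through its seed, bases 2 to 8 from its 5′ end. Hairpins cut from a shared primary transcript can still end at unequal levels, since each is processed and degraded on its own.

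On GRCm38, Clcn5 lies on the minus strand of chromosome X from 7153810 to 7319358, and the 5 hairpins occupy 10815 bases of it. In the direction of transcription they run Mir532 (chrX:7248402-7248497), Mir188 (chrX:7247989-7248056), Mir362 (chrX:7241982-7242046), Mir501 (chrX:7241243-7241351) and Mir500 (chrX:7237683-7237774), all on the strand of Clcn5. GENCODE M21 has 5 transcripts of Clcn5, of which 3 contain the cluster. In each of those 3 all the hairpins lie in 1 intron of 103648 bases, and no exon falls within the span of the cluster, so all 5 genes were intronic. Gaps of 345 bases between Mir532 and Mir188 and 630 bases between Mir362 and Mir501 are short beside the 5942 bases that separate Mir188 from Mir362 and the 3468 bases between Mir501 and Mir500. No further annotated miRNA gene of this strand starts within 10000 bases of the cluster.

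The mature sequences are shown because the counts do not separate the arms of a hairpin, and because they show which members resemble each other. RefSeq sequences on GRCm38.p6 were matched by symbol for all 5 hairpins, and 9 mature entries are printed with the seed in capitals. The arms of Mir532 are miR-532-5p and miR-532-3p, but only miR-532-3p had an entry among the RefSeq sequences used. The comparisons of mature strands and seeds below therefore leave out miR-532-5p.
miR-532-3p: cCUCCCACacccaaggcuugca
miR-188-5p: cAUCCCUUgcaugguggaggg
miR-188-3p: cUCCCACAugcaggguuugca
miR-362-5p: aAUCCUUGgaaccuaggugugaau
miR-362-3p: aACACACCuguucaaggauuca
miR-501-5p: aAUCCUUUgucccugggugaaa
miR-501-3p: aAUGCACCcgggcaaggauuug
miR-500-5p: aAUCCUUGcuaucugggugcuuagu
miR-500-3p: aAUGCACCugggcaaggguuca

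The 9 strands printed, 1 from Mir532 and 2 from each other gene, held 7 seeds. The seed AUCCUUG was shared by miR-362-5p and miR-500-5p, and miR-501-5p begins with the same 7 bases as both, AAUCCUU, so the 5p strands of these 3 neighbours open alike. The seed AUGCACC was shared by miR-501-3p and miR-500-3p, which differ at 4 of 22 positions, counted from the 5′ end with the base of miR-501-3p first: C9U, A18G, U21C and G22A. Against miR-500-3p, miR-362-3p differs at 5 positions, C3U, A4G, U11G, U12G and A18G, of which C3U and A4G lie in the seed. Mir532 and Mir188 resembled each other in another stretch: their 3p strands both hold CUCCCACA and matched in 17 of 22 aligned columns, but the stretch is offset by 1 base, so the seeds CUCCCAC and UCCCACA differ. Over whole hairpins Mir501 and Mir500 were the most alike of the 10 pairs, with 67.3% identity, and the other pairs had 43.1% to 57.3%.

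Outside the cluster, 2 of these 7 seeds recurred among 1738 mature sequences. The seed ACACACC of miR-362-3p is also that of miR-329-3p, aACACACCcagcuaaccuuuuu, whose gene Mir329 lies on chromosome 12. Mir329 had 614 counts in pup 1 and 816 in pup 2, or 172 and 174 CPM, against 188 and 297 CPM for Mir362. The seed AUCCCUU of miR-188-5p is also that of miR-7061-3p, whose gene was not analysed here.

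None of the 5 hairpins shared a stretch as long as a mature strand with another hairpin of the table. This matters because multi-mapped reads, 30.3% of the library of pup 1 and 29.8% of that of pup 2, belong to no gene in these counts, so a hairpin with an identical copy loses reads. The mature strands printed above are 21 to 25 bases long. The longest exact run that a member shared with any of the other hairpins in the RefSeq table was 14 bases, between Mir501 and Mir500. For Mir532 it was 12 bases, with Mir3105 and Mir6957, for Mir188 11 bases, with Mir3473g and Mir7005, and for Mir362 11 bases, with Mir1931 and Mir5623. The RefSeq table held 1005 hairpins, and 276 of the 314 detected genes had one in it. The opposite strand of these hairpins and the rest of the genome were not searched, so loss of member reads to multi-mapping is not known. Levels were not divided by the length of the hairpin, on the assumption that a read covers a whole mature strand. Read lengths and positions were not examined.

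Mir532 and Mir188, the first hairpins of the cluster, were abundant, and Mir501, Mir500 and Mir362 stood several-fold lower. Mir532 counts were 6014 for pup 1 and 7395 for pup 2, or 1686 and 1579 CPM, with a mean of 1632 ± 75.6 CPM. Mir188 had 5519 and 7197 counts, 1547 and 1537 CPM, with a mean of 1542 ± 7.37 CPM. The counting intervals of the pups overlapped for Mir188 and did not for Mir532, which was the higher in pup 1. Mir532 and Mir188 ranked 62 and 68 among the 314 detected genes by mean CPM.

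Mir501 counts were 1396 for pup 1 and 2263 for pup 2, or 391 and 483 CPM, with a mean of 437 ± 64.9 CPM. Mir500 had 1150 and 1649 counts, 322 and 352 CPM, with a mean of 337 ± 21.01 CPM. Mir362 had 671 and 1393 counts, 188 and 297 CPM, with a mean of 243 ± 77.3 CPM. All 3 were higher in pup 2, with counting intervals that overlapped for Mir500 and not for Mir501 or Mir362. All 5 members lay above the median level of detected genes, 145 CPM. Small RNA library preparation favours some sequences over others, and the spread between pups does not measure how far that enters a comparison of levels between genes.

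**Figure D1:**
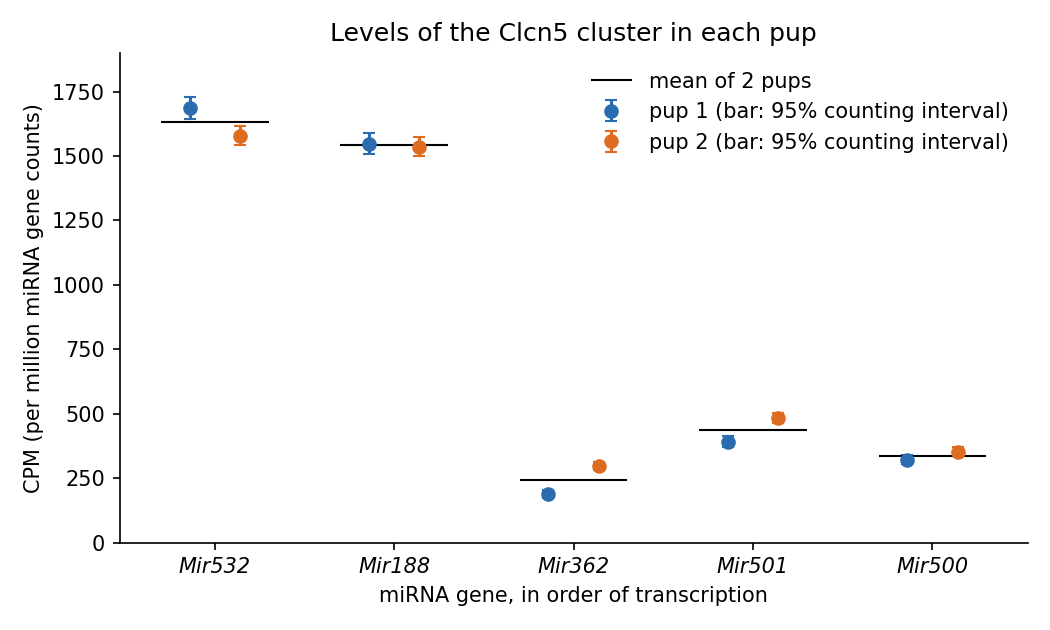
Level of each gene in CPM (vertical axis) by gene in the order of transcription (horizontal axis), with a point for each pup, bars for the 95% counting interval and a line for the mean of the 2 pups. Mir532 and Mir188 lie between 1537 and 1686 CPM in both pups, and the other 3 genes lie between 188 and 483 CPM.

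The order of means was Mir532, Mir188, Mir501, Mir500, Mir362, and it was the same in each pup. Neighbours in that order were close in 3 of 4 cases. Mir532 exceeded Mir188 by 90.5 CPM, little more than the SD of 75.6 CPM of Mir532. In pup 2 their counting intervals, 1543 to 1615 CPM and 1501 to 1572 CPM, overlapped. Mir501 exceeded Mir500 1.21-fold in pup 1 and 1.37-fold in pup 2, and its lower value, 391 CPM, stood above the higher value of Mir500, 352 CPM. Mir500 exceeded Mir362 by 94.5 CPM, with an SD of 77.3 CPM for Mir362. Between Mir188 and Mir501 the gap was far wider, 1105 CPM, or 3.95-fold in pup 1 and 3.18-fold in pup 2.

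The step in level coincided with the longest gap in the locus. Mir532 and Mir188, upstream of the 5942 bases without a hairpin, took 78.2% of the counts of the cluster in pup 1 and 73.3% in pup 2. Mir501 took 9.46% and 11.4%, Mir500 7.80% and 8.29%, and Mir362 4.55% and 7.00%. Level did not fall steadily along the transcript, since Mir362 is the first gene after the gap and had the lowest level in both pups. In all, the cluster held 14750 counts in pup 1 and 19897 in pup 2, which were 0.413% (0.407% to 0.420%) and 0.425% (0.419% to 0.431%) of counts in miRNA genes, a mean of 0.419% ± 0.00803.

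**Figure D2:**
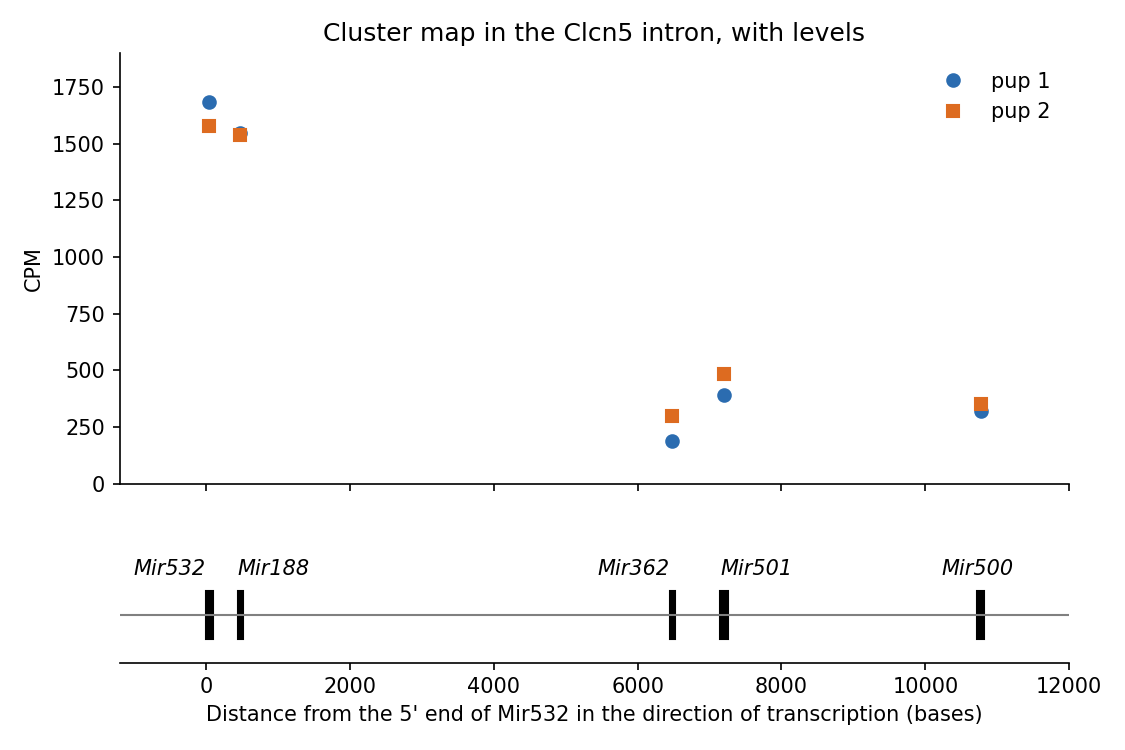
The upper panel gives CPM in each pup and the lower panel the hairpins to scale, both against the distance in bases from the 5′ end of Mir532 in the direction of transcription. The 2 high genes sit together at the start of the map, and Mir362, Mir501 and Mir500 follow after a gap of 5942 bases.

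Summed over the cluster the pups were nearly alike, but the genes after the gap took a larger part in pup 2. The split was counted within each library, so no scaling between libraries enters it. Mir532 exceeded Mir362 8.96-fold in pup 1 and 5.31-fold in pup 2, a log2 ratio of 2.79 ± 0.53. It exceeded Mir501 4.31-fold and 3.27-fold, a log2 ratio of 1.91 ± 0.28. It exceeded Mir500 5.23-fold and 4.48-fold, a log2 ratio of 2.28 ± 0.16. Mir532 and Mir188 kept nearly equal counts, with Mir532 1.09-fold and 1.03-fold the higher. Within the downstream genes, Mir501 exceeded Mir362 2.08-fold in pup 1 and 1.62-fold in pup 2.

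Between the pups, at library sizes scaled by TMM (the trimmed mean of M values of edgeR), Mir362 stood 1.63-fold higher in pup 2 (interval 1.48 to 1.79). Mir501 was 1.27-fold higher (1.19 to 1.36) and Mir500 1.13-fold higher (1.04 to 1.21). Mir188 was 1.02-fold higher with an interval of 0.988 to 1.06, and its log2 ratio of 0.03 became -0.01 with total counts. Mir532 was 0.965-fold as high in pup 2 as in pup 1, with an interval of 0.932 to 0.998. With 1 library an animal these ratios compare 2 libraries and have no replicate check.

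Of the 5 genes, 1 was past 1.5-fold, Mir362, against 5.73% of the 314 detected genes in either direction and 2.87% in the direction of pup 2. This contrast was known when the cluster was proposed, so nothing is read from this share. The median log2 ratio of the 5 genes was 0.17, and that of all detected genes was 0.00. In log2 ratio Mir362 ranked 6, Mir501 36, Mir500 84, Mir188 139 and Mir532 188 of 314, counted from the gene highest in pup 2. Among the 174 detected genes with at least 100 CPM, Mir362 ranked 1 when counted the same way. In the direction of pup 1, Mir196b, also among them, had a far larger difference, a log2 ratio of -4.91. Another 32 detected genes had mean levels of 150 to 350 CPM, the band that holds Mir362, and 1 of them was past 1.5-fold.

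**Figure D3:**
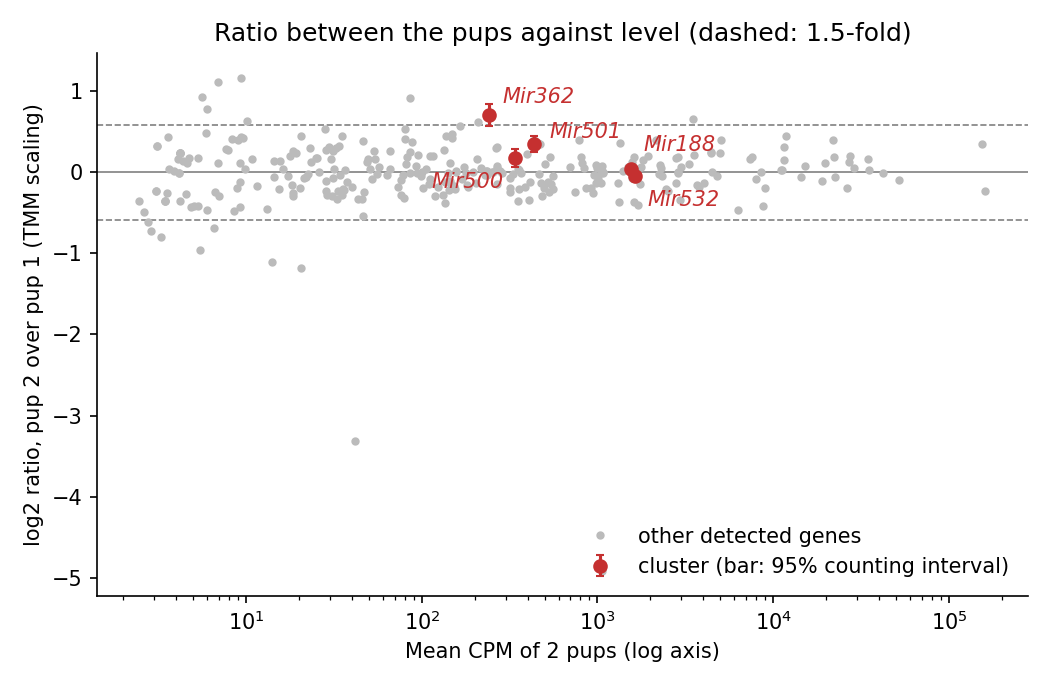
The log2 ratio of pup 2 over pup 1 (vertical axis, TMM scaling) against mean CPM on a log axis for 314 detected genes, with the cluster in red, its 95% counting intervals as bars and dashed lines at 1.5-fold. Mir362 lies above the upper dashed line, Mir501 and Mir500 between it and 0, and Mir188 and Mir532 at about 0.

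The pups also differed in the balance of tissue markers, and its part in the ratios was not tested. In bulk tissue, fewer cells of a type and less RNA per cell cannot be told apart. Of all detected genes, Mir196b differed most between the pups, with 7337 counts in pup 1 and 310 in pup 2, a log2 ratio of -4.91. Mir196a-2 came next with 272 and 35 counts, a log2 ratio of -3.31. Both were named after their values were seen. No segment is given, and whether both libraries came from the same part of the intestine was not tested. The epithelial miRNAs (7 of 7 detected) took 26.1% of counts in pup 1 and 30.4% in pup 2, and the smooth muscle miRNAs Mir143 and Mir145a (2 of 2) took 18.1% and 15.0%. Endothelial Mir126a took 5.46% and 4.98%. The other lists were small in both pups. Leukocyte miRNAs took 0.0436% and 0.0483% (2 of 3 detected, Mir142 not analysed here), and erythroid miRNAs 0.0100% and 0.0146% (2 of 2). Liver Mir122 took 0.00289% and 0.00124%. Striated muscle miRNAs took 0.0347% and 0.0355% (3 of 5, Mir1a-1 at 0). Neuronal miRNAs took 0.107% and 0.103% (1 of 3, Mir124a-1 at 0 and Mir9-1 not analysed here). Multi-mapped reads belong to no gene in these counts, and copies of the marker hairpins were not searched for. The 0 of Mir1a-1 and of Mir124a-1 is therefore not read as absence.

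The opposite strand of the 5 hairpins held 0 counts in both libraries. With 14750 and 19897 counts on the annotated strand, a count of 0 allows up to 3 counts, a share of up to 0.0203% in pup 1 and 0.0151% in pup 2. Over all miRNA genes the opposite strand took 3.42% and 3.33% of counts. The counts of the cluster were therefore the same with and without regard to strand.

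The spread of levels within the cluster was set beside that of other miRNA clusters. Clusters were formed from genes of the same strand whose neighbouring starts lay within 10000 bases, and 11 had at least 3 detected genes. The highest gene, Mir532, exceeded the lowest, Mir362, 6.72-fold in mean CPM, a log2 range of 2.75. That was the second smallest range of the 11, after 1.38 in the Mir182 cluster, and ranked 3 from the smallest in pup 1 alone and with a minimum of 100 counts. The median of the other 10 was 6.66, with a maximum of 10.32 in the Mir17 cluster. Such a range tends to be wider with more genes, so its rank is a description only. The 4 other clusters with 3 detected genes had ranges of 1.38 to 5.27, and all those with 6 or more had at least 6.45. In 5 of the 9 other clusters whose lowest gene has a hairpin in the RefSeq table, that gene shares an exact run of 21 to 28 bases with another hairpin. Multi-mapped reads from such a run are missing from these counts, and the ranges of those 5 clusters were all at least 5.27. The other 4 had ranges of 1.38 (Mir182 cluster), 2.94 (Mir93 cluster), 3.61 (Mir429 cluster) and 7.66 (Mir127 cluster). The first 3 of these had 3 detected genes each and the Mir127 cluster had 10, while the 5 clusters with such a run had 3 to 29. Whether a run in the lowest gene widened the range was not tested, and the number of genes differs along with it. The runs were not placed on the mature strands.

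The ratios between the pups, by contrast, spread more within this cluster than within most. Its log2 ratios ran from -0.05 for Mir532 to 0.70 for Mir362, a range of 0.76. Mir362 alone set the upper end, and the next highest was Mir501 with 0.35. The ratio of Mir362 was known when the cluster was proposed. Of the other 10 clusters 1 had a larger range, the Mir411 cluster with 0.98 over 29 detected genes, and their median was 0.45. These ranges include counting error, and they grow with the number of genes in a cluster, so the ranks are given as a description.

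**Figure D4:**
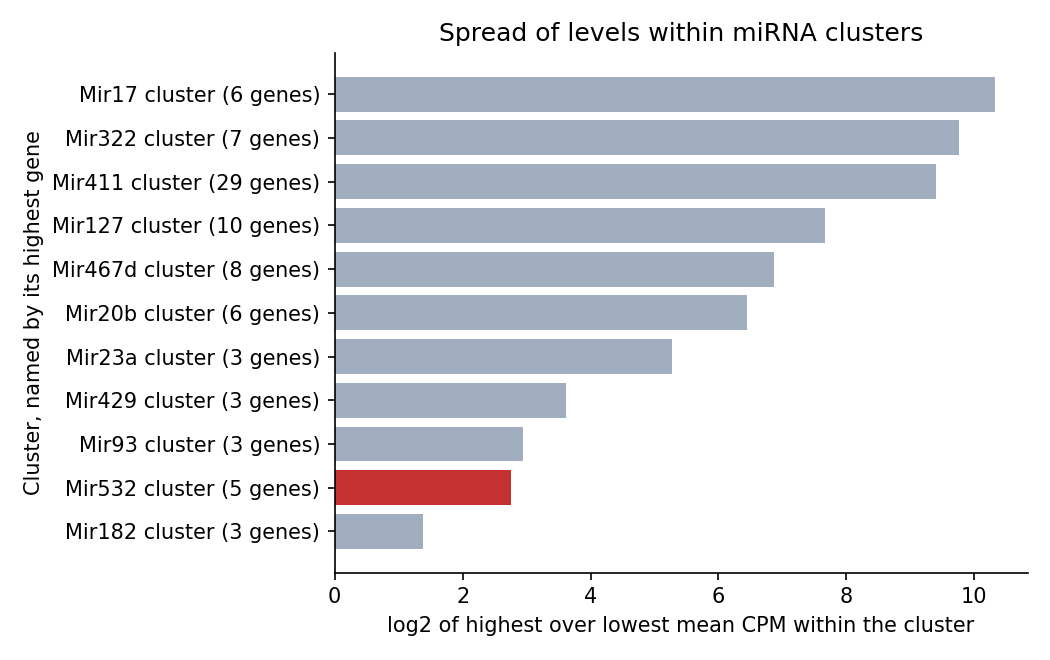
The log2 of the highest over the lowest mean CPM (horizontal axis) within each of 11 clusters with at least 3 detected genes, named by the highest gene, with the number of detected genes in brackets. The Mir532 cluster, in red, has a range of 2.75, and the others run from 1.38 to 10.32.

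On chromosome X, 31 of 115 other miRNA genes were detected, and together with the 5 members they made 36. Mir532 ranked 5 and Mir188 ranked 6 of these 36 by mean CPM, Mir501 ranked 9, Mir500 13 and Mir362 19. The highest other genes were Mir322 with 7971 ± 476 CPM, Mir98, a member of the let-7 family, with 4788 ± 203 CPM, and Mir652 with 3669 ± 362 CPM. The median log2 ratio of the 31 genes was 0.02, with 18 of 31 above 0, against 0.00 and 159 of 314 for all detected genes. Past 1.5-fold were 2 of the 31, both higher in pup 2. These were Mir1198 with 21 and 60 counts and Mir452 with 29 and 57 counts, named after their values were seen. Of the 31, 1 gene, Mir1198, had a larger log2 ratio than Mir362.

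The detected genes outside the cluster most like Mir532, by Euclidean distance of log2 CPM over the 2 pups, were Mir181c at 0.03 (1721 and 1572 CPM), Mir101b at 0.08 (1637 and 1513 CPM) and Mir183 at 0.11 (1559 and 1585 CPM). Those most like Mir188 were Mir361 at 0.02 (1553 and 1521 CPM), Mir324 at 0.02 (1524 and 1550 CPM) and Mir183 at 0.05. Mir361 also lies on chromosome X, and the others lie on 4 autosomes. With 2 samples this likeness is one of level alone.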

How the data were processed

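MicroRNA sequencing libraries from the intestine of 2 newborn mice were analysed. The authors deposited unnormalized counts of reads for each miRNA gene on mm10 and GENCODE M4, per the README supplied with them. No aligner or counter is given in the sources used here. The deposited tables hold 3 columns of counts, for either strand, the annotated strand and the opposite strand, and 4 totals of reads of no gene, which stayed out of library sizes. Counts on the annotated strand were used. Identifiers without version were matched to GENCODE M21 on GRCm38 (1894 of 1973; the rest held 0 counts). Scaling between pups used TMM in edgeR 4.0.16, with DESeq2 1.42.0 size factors, total counts and upper quartile as alternatives. Ratios were also computed on simulated counts that had counting error but no variation between animals. Of 193 genes changed 2-fold there, 187 were past 1.5-fold in the right direction, and 7 of 123 unchanged genes were past it either way. The series has 1 group, so no p-value was computed. The members and lists were chosen with earlier results of these data known. Genes named by rule were the members, the other annotated genes of the cluster (0 found) and genes with a shared seed. They also included 3 nearest genes for each of the 2 most abundant members and the 3 highest other genes of chromosome X. For each member the hairpins sharing the longest run were named too. Mir196b, Mir196a-2, Mir1198 and Mir452 were named after their values were seen.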

Additional observations from a re-analysis of the deposited data

How the results depend on the processing

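Of 118 values computed under the alternatives, 104 stayed within a set limit, 14 moved further and 0 reversed. The limit was the SD over the pups, the counting interval of a ratio or, for numbers of genes, a factor of 1.5. Leaving out 1 pup cannot move a mean of 2 pups by more than their SD. Ignoring strand cannot change ratios among members, which had 0 counts on the opposite strand. Many values could therefore not move, and the tally is not read as a check of the results. All 7 settings for the ratio between pups kept Mir362 past 1.5-fold, with a log2 ratio of 0.66 to 0.75, and Mir188 alone changed sign, in 1 setting. These settings change the scaling between the libraries or add 0.5 to a count. They do not check the counts of Mir362 themselves, which come from 1 library an animal. With all reads as denominator the median level of the 5 genes was 244.6 per 1000000 reads and the cluster took 0.234% of reads, and with strand ignored it took 0.405%. Past 1.5-fold were 18 of the 314 detected genes, against 156 of 536 genes with any count in both libraries and 5 of 227 with at least 100 counts. With a lower threshold, a log2 ratio of 0.32, 76 of the 314 detected genes were past it, and 6 of the 314 were past a fold of 2. With 5000 bases between neighbouring starts the cluster split and its last 3 genes had a log2 range of 0.85. Each pup alone gave a range of 2.41 or 3.16 for the whole cluster. A ratio between the pups has no value with a pup left out. No paired analysis was possible because the series has 1 group. Depth limits the ratios of Mir362, Mir501 and Mir500 more than those of Mir532 and Mir188, which had more counts.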
